A study of Mus musculus with 6 samples.

Results

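Ucp1 and 7 other genes that are typical of fat tissue were examined in the whole kidney of lupus-prone mice and their controls. They were Ucp1, Cidea, Elovl3, Adipoq, Fabp4, Plin1, Cfd and Lep, and every array probe annotated to one of these names was taken, whatever its signal. This gave 12 probes out of 56605 that are not controls. Of these, 11 probes of 7 genes passed the filter on dim signals, against 39924 probes in all. Ucp1 was chosen by its measured fold change between these same mice, the large difference in array signal between LPR and MRL kidneys, so its values are a description and carry no test. The comparison asked whether Ucp1 was lower alone or together with other fat genes.

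The series compared the kidneys of 3 female MRL/MpJ (MRL) mice with those of 3 female MRL/MpJ-Fas lpr/lpr (LPR) mice, all at 6 months of age and untreated as far as the labels say. LPR mice carry the lpr mutation of the death receptor gene Fas on the MRL background and develop a lupus-like disease with nephritis, and MRL mice are their control strain. Each mouse gave 1 single-colour Agilent array, and all 6 arrays lie on 1 slide with 1 scan. The protocol takes the excised kidney and does not say how much of the fat around it or in its sinus was removed.

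White and brown fat cells store triglyceride in lipid droplets and secrete hormones. Brown and beige fat cells also burn fuel to make heat. Ucp1 is the carrier in their mitochondrial inner membrane that lets protons back into the matrix without ATP synthesis, and it is switched on through beta adrenergic receptors and nuclear receptors. Fat of the brown or beige kind lies around the mouse kidney, at its hilum and next to the adrenal gland. In bulk tissue, fewer cells of a type and less RNA per cell cannot be told apart.

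The array reads each transcript with probes of 60 bases, whose positions are given on the mouse build mm9 (NCBI37). The probes below are shown because the main results rest on them. The probe of Ucp1 lies at chr8:85821788-85821847 on the plus strand. The probe of Adipoq lies at chr16:23157576-23157635 on the plus strand, and the second probe of Fabp4 at chr3:10208442-10208501 on the minus strand. The dimmer probe of Cfd lies at chr10:79355274-79355333 on the plus strand, and the capitals mark the 32 bases it shares with the other probe of Cfd, so these probes are not independent readings. The probe of Lep lies at chr6:29020910-29020969 on the plus strand.
Ucp1: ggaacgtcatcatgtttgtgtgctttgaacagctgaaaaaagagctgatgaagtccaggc
Adipoq: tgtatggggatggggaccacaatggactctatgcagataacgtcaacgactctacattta
Fabp4: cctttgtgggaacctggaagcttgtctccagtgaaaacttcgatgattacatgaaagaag
Cfd: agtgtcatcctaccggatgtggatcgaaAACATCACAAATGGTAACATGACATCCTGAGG
Lep: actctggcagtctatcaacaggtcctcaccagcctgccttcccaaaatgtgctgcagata

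Values are log2 signals relative to the 75th percentile of the array, so 0 is the level of that percentile and −1 is a level lower by 1 on the log2 scale. Testing was limited to probes whose signal was well above background in 3 or more of the 6 mice. The test was limma's moderated test, its p-values were adjusted by Benjamini-Hochberg across the 39924 probes so chosen, and 0.05 was the threshold. A gene was represented by its tested probe of highest mean signal. The labels number the mice of a group and say nothing of litters or cages, and p-values measure the spread between these mice. Across these probes 12.7% were called, 6.17% lower in LPR mice and 6.53% higher, and the median log2 change was −0.14.

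Over the 6 arrays the 75th percentile ranged from 706 to 942 intensity units, highest in LPR 1, and 69.6% to 73.5% of spots were well above background. LPR 1 was the highest on both measures, at 942 and 73.5%, against 706 to 759 and 69.6% to 70.9% in the other mice, and the part of this in the values of LPR 1 was not tested. The array barcodes give a position index after the slide number. It is 1 for MRL 1, MRL 2, MRL 3 and LPR 1, and 2 for LPR 2 and LPR 3. This index is called slide column here, and whether it is a column or a row of the slide was not examined. Slide column and mouse cannot be told apart for LPR 2 and LPR 3, so the values of LPR 1 against the MRL mice are also the values within a column. All 12 genes of a list of kidney segment markers were above background in every mouse. Of the 2 probes of Fas, 1 was well above background in the LPR mice only, at least 1.47-fold higher there than the detection limit of the MRL arrays. It passed the filter through the LPR mice alone, so no p-value is given for it. The other was not called (−0.47, limma adjusted p = 0.234). Their place relative to the lpr insertion was not examined, so they do not check the strain labels.

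Ucp1 was lower in every LPR mouse than in every MRL mouse. The log2 signals were −3.40 in MRL 1, −2.13 in MRL 2 and −1.47 in MRL 3. They were −4.40 in LPR 1, −7.34 in LPR 2 and −8.15 in LPR 3. The groups did not overlap, the control mice already differed among themselves, and LPR 1 lay closer to MRL 1 than to the other LPR mice. The means were −2.33 ± 0.98 (SD, n = 3) and −6.63 ± 1.97 (SD, n = 3), a log2 change of −4.30 or 19.6-fold. Ucp1 was well above background in all 3 MRL mice but in 1 of 3 LPR mice, LPR 1, where it stood at 23.9% of the MRL mean. The signals of LPR 2 and LPR 3 were not well above background, so their order and exact distance are not measured. With the dim signals of LPR 2 and LPR 3 raised to the lowest signal that was well above background on their arrays, the log2 change was −3.21 or 9.25-fold. It was −1.59 with another background correction (normexp), and −2.07 for LPR 1 alone, within a slide column. The normexp setting adds an offset of 50 intensity units, which by construction shrinks changes and spread among dim signals. Ucp1 intensities ran from 254.6 in MRL 3 to 2.7 in LPR 3.

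**Figure D1:**
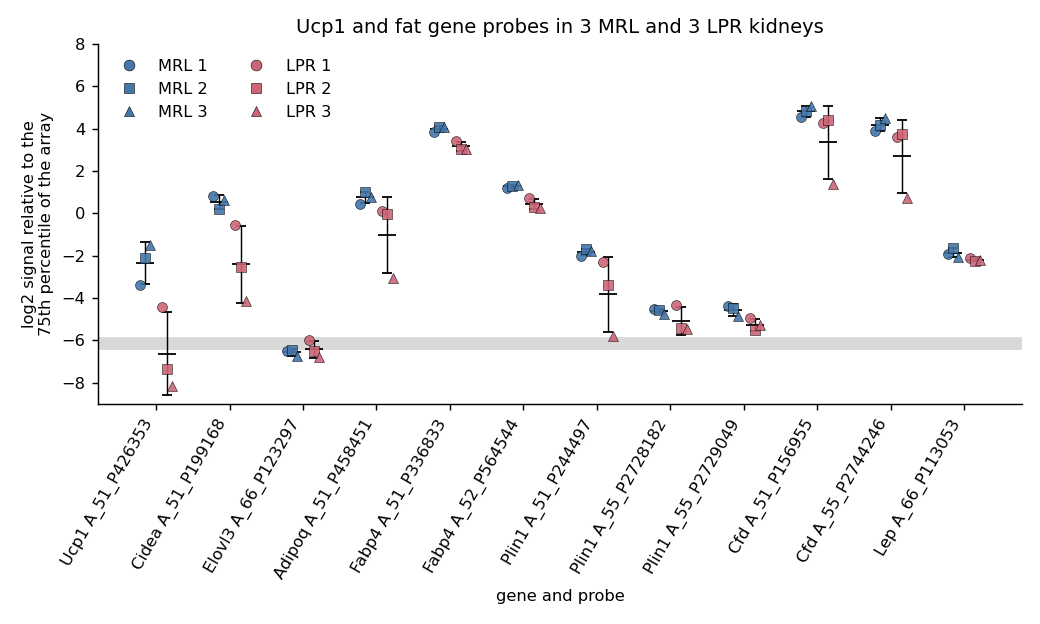
Log2 signal relative to the 75th percentile of the array (vertical axis) for the 12 probes of the 8 genes (horizontal axis). Points are single mice, MRL in blue and LPR in red, with the mean and SD (n = 3) in black. The grey band spans the lowest signals well above background on the 6 arrays. Ucp1 of LPR 2 and LPR 3 lies under the band, and LPR 3 is far below the other mice for Adipoq and Cfd.

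Cidea, a lipid droplet protein abundant in brown fat, was the gene with the next largest difference after Ucp1. Its log2 signals were 0.80 in MRL 1, 0.19 in MRL 2 and 0.63 in MRL 3, and −0.53 in LPR 1, −2.54 in LPR 2 and −4.15 in LPR 3. As with Ucp1, LPR 1 lay closest to the MRL mice, and the probe was well above background in every mouse. The log2 change was −2.95 ± 0.81 (SE), 7.73-fold lower, with a limma adjusted p of 0.0600, just outside the threshold. The adjusted p was 0.0398 when only probes above background on all 6 arrays were tested, 0.0477 with dim signals raised to the detection limit, 0.00673 with normexp and 0.00748 without LPR 1. It was 0.118 with no filter on dim probes, 0.109 to 0.146 without an MRL mouse, 0.123 without LPR 2 and 0.0867 without LPR 3. With slide column as a block the log2 change was −1.07 (adjusted p = 0.358), and the same within the column (adjusted p = 0.123). Elovl3, a fatty acid elongase of brown fat, was well above background in LPR 1 only. It was not tested and no fold is given.

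Adipoq encodes adiponectin, a hormone of fat cells. Its log2 signals were 0.46 in MRL 1, 1.01 in MRL 2 and 0.79 in MRL 3, against 0.10 in LPR 1, −0.05 in LPR 2 and −3.07 in LPR 3. Every LPR mouse was below every MRL mouse, and LPR 3 was far below the other LPR mice. The log2 change of −1.76 ± 0.80 (SE) was not called (limma adjusted p = 0.191). Without LPR 3 it was −0.73 (adjusted p = 0.0815).

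Cfd, which encodes adipsin, the complement factor D that fat cells secrete, had the same split. On its brighter probe the log2 signals were 4.57 in MRL 1, 4.83 in MRL 2 and 5.09 in MRL 3, and 4.27 in LPR 1, 4.43 in LPR 2 and 1.38 in LPR 3. LPR 3 stood at 9.15% of the MRL mean, and LPR 1 and LPR 2 at 67.7% and 75.6%. The log2 change was −1.47 ± 0.77 (SE, limma adjusted p = 0.244) on this probe and −1.51 (adjusted p = 0.234) on the overlapping one. Without LPR 3 these were −0.48 and −0.52.

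Plin1, perilipin 1, coats the lipid droplets of fat cells. On its brightest probe the log2 signals were −1.99 in MRL 1, −1.70 in MRL 2 and −1.76 in MRL 3, and −2.31 in LPR 1, −3.39 in LPR 2 and −5.78 in LPR 3, where it was not well above background. The groups did not overlap and LPR 1 was again closest to the MRL mice. The log2 change was −2.01 ± 0.79 (SE), not called (limma adjusted p = 0.143), and −1.03 without LPR 3. With normexp it was −1.11 and was called (adjusted p = 0.0167). Another probe, annotated to another transcript, gave −0.69 (adjusted p = 0.0643) with no overlap of the groups. The remaining one gave −0.47 (adjusted p = 0.326) with overlapping groups, and 0.26 for LPR 1 against the MRL mice. On these other probes, both above background in every mouse, LPR 3 lay by −0.03 and −0.60 from the mean of LPR 1 and LPR 2, against −2.93 on the brightest probe. Both were dim, with LPR signals between −5.53 and −4.35, and the lowest signal well above background in LPR 3 was −6.08. A gap as large as −2.93 would have put LPR 3 under that limit, and on both probes LPR 3 stayed above it. The probes of Plin1 thus differed in the gap of LPR 3, and the cause was not tested.

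Fabp4, the fatty acid binding protein of fat cells that is also made by capillary endothelium and macrophages, fell in LPR mice. Its log2 signals were 3.86 in MRL 1, 4.07 in MRL 2 and 4.06 in MRL 3, and 3.43 in LPR 1, 3.04 in LPR 2 and 3.05 in LPR 3. All LPR mice were lower, LPR 2 and LPR 3 were alike, and the large gap of LPR 3 seen in Adipoq and Cfd was absent. The log2 change was −0.83 ± 0.14 (SE), 1.77-fold lower, with a limma adjusted p of 0.0123. The other probe gave −0.84 (adjusted p = 0.0120). On the brighter probe the call was lost without LPR 3 (adjusted p = 0.0501), and on both probes with slide column as a block (adjusted p = 0.109 on the brighter one, where the log2 change was −0.57).

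Lep encodes leptin, the hormone with which fat cells report energy stores. Its log2 signals were −1.90 in MRL 1, −1.63 in MRL 2 and −2.06 in MRL 3, and −2.10 in LPR 1, −2.24 in LPR 2 and −2.22 in LPR 3. The LPR mice were lower without overlap, but MRL 3 and LPR 1 almost met. The log2 change of −0.32 ± 0.14 (SE) was not called (limma adjusted p = 0.169).

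Of the 6 tested genes other than Ucp1, 1 was called lower (Fabp4) and none higher, against 6.17% and 6.53% of all tested probes. In all 6 the groups did not overlap, with LPR below MRL, as was the case for 26.9% of all probes. Their median log2 change was −1.62, against −0.14 for all probes, and −0.75 without LPR 3. By mouse the median difference from the MRL mean was −0.57 in LPR 1, −0.88 in LPR 2 and −3.64 in LPR 3. The size of the change was uneven, from −2.95 for Cidea to −0.32 for Lep, beside −4.30 for Ucp1. Among the 6 mice, LPR 3 had the lowest signal for Cidea, Adipoq, Plin1 and Cfd, and LPR 2 for Fabp4 and Lep. In 4 of the 6 genes (Cidea, Adipoq, Plin1 and Cfd) LPR 3 was at least 1 below the mean of LPR 1 and LPR 2 on the log2 scale. For Plin1 this was seen on its brightest probe but on neither of the others, which were dim but well above background in every mouse. A gap of at least 1 held for 0.747% of all tested probes. The gaps were −2.61 for Cidea, −3.09 for Adipoq, −2.93 for Plin1, where LPR 3 was not well above background, and −2.97 for Cfd. The exact size of the gap is thus not measured for Plin1. None is given for Ucp1, where LPR 2 was not well above background either. For Fabp4 and Lep the gaps were −0.18 and −0.05.

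**Figure D2:**
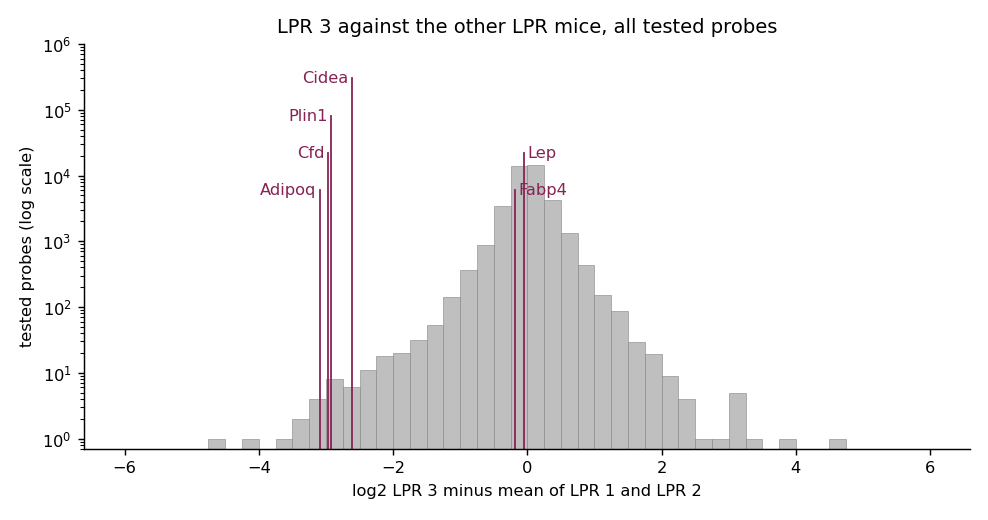
Histogram of the log2 signal of LPR 3 minus the mean of LPR 1 and LPR 2 (horizontal axis) over the tested probes, with the number of probes on a log scale (vertical axis). Lines mark the 6 tested fat genes other than Ucp1, 1 probe per gene. Cidea, Adipoq, Plin1 and Cfd lie between −3.09 and −2.61, and Fabp4 and Lep lie near 0.

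A wider list of 26 adipocyte genes, all of them tested, showed the same mice apart in some genes and not in others. Of these, 3 were called lower (Pck1, Plin4 and Slc2a4) and none higher, against 6.17% and 6.53% of all tested probes. The median log2 change was −0.43, against −0.14 for all probes. In 15 of the 26 every LPR mouse was below every MRL mouse, against 26.9% of all probes. Pck1, which encodes a gluconeogenic enzyme that the kidney proximal tubule also makes, was 6.52, 6.47 and 6.35 in the MRL mice and 4.66, 5.09 and 5.26 in the LPR mice (log2 change −1.45 ± 0.17 (SE), limma adjusted p = 0.00211). Its lowest value was in LPR 1, whereas LPR 1 was the highest LPR mouse for Ucp1. Plin4, another lipid droplet coat protein, was 0.06, 0.53 and 0.44 in the MRL mice and −0.19, −1.0 and −1.35 in the LPR mice (−1.19 ± 0.30, adjusted p = 0.0449). Slc2a4, the insulin-regulated glucose transporter, changed by −0.62 ± 0.16 (adjusted p = 0.0456).

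Against 0.747% of all tested probes, in 5 of the 26 genes LPR 3 was at least 1 below the mean of LPR 1 and LPR 2. These were Retn (resistin), Cidec (a lipid droplet protein of white fat), Adig (adipogenin), Car3 (carbonic anhydrase 3) and Acvr1c (an activin receptor of fat cells), which was not well above background in LPR 2 and LPR 3. None of them was called, with limma adjusted p-values of 0.181, 0.160, 0.104, 0.0604 and 0.0505. Cidec had log2 signals of 1.11, 1.76 and 1.82 in the MRL mice and of 0.56, 0.77 and −2.36 in LPR 1, LPR 2 and LPR 3. Car3 had 3.12, 3.26 and 3.15 in the MRL mice and 1.61, 1.62 and −1.0 in the LPR mice. Both had all LPR mice below all MRL mice and LPR 3 far below the rest. Among the lipid synthesis genes of the list, which many kidney cells also use, Fasn, Acaca and Acly had small mean changes and overlapping groups. The log2 change was −0.23 for Fasn (fatty acid synthase, adjusted p = 0.484), −0.13 for Acaca (acetyl-CoA carboxylase, adjusted p = 0.634) and 0.02 for Acly (ATP citrate lyase, adjusted p = 0.939). Other lipid genes of the list were not called either, and some changed more. Thrsp changed by −0.999 (adjusted p = 0.167) with overlapping groups, and Gpd1 by −0.34 (adjusted p = 0.127) without overlap. Dgat2 changed by −0.30 (adjusted p = 0.260) and Scd1 by 0.08 (adjusted p = 0.885), both with overlapping groups.

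**Figure D3:**
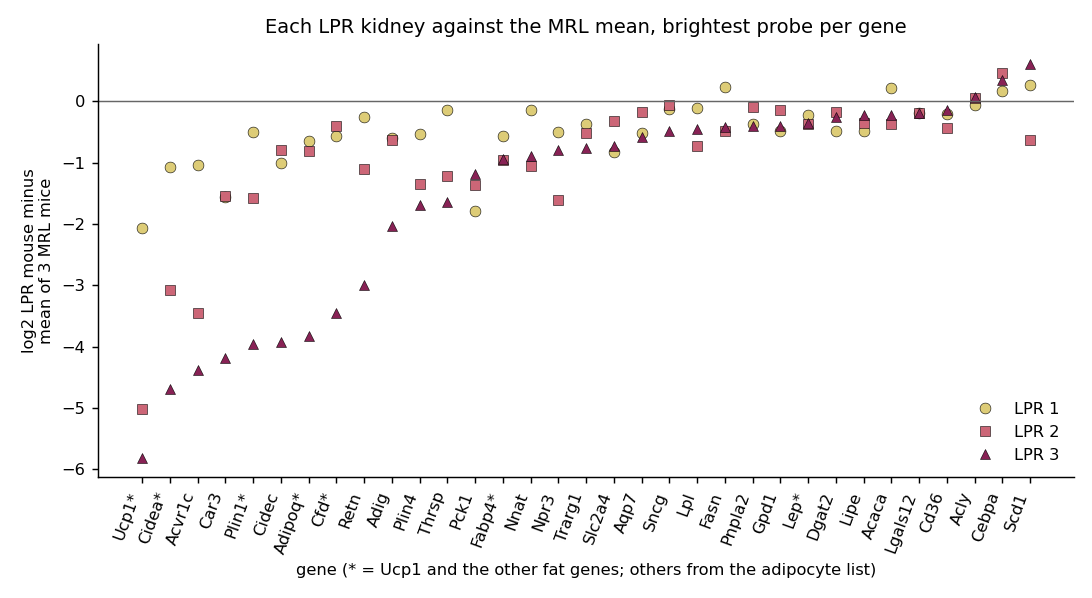
Log2 signal of each LPR mouse minus the mean of the 3 MRL mice (vertical axis) for Ucp1 and the other fat genes (asterisks) and the 26 genes of the adipocyte list (horizontal axis), ordered by LPR 3. Each symbol is 1 LPR mouse. LPR 3 is near −4 for Car3, Plin1, Cidec and Adipoq, where LPR 1 lies between −1.56 and −0.49, and the 3 mice come together for most of the other genes.

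Of the 18 genes of a brown fat list, 16 were tested. Of these, 2 were called lower (Gk and Cpt1b) and none higher, against 6.17% and 6.53% of all tested probes. The median log2 change was −0.20, against −0.14 for all probes. In 8 of the 16 every LPR mouse was below every MRL mouse, against 26.9% of all probes. These include Cited1, a transcriptional coregulator (−1.33, limma adjusted p = 0.0962), Tmem26, a surface marker of beige fat (−0.59, adjusted p = 0.0861), and Fabp3, the fatty acid binding protein of heart and brown fat (−0.54, adjusted p = 0.0752). Zic1 and Bmp8b, a transcription factor and a secreted factor of brown fat, were above background on too few arrays to be tested. Gk, glycerol kinase, changed by −0.63 ± 0.14 (SE, limma adjusted p = 0.0326), and Cpt1b, the muscle and brown fat form of the enzyme that brings fatty acids into mitochondria, by −0.71 ± 0.16 (adjusted p = 0.0342). Cox8b, a respiratory chain subunit of muscle and brown fat, had 2.20, 2.24 and 2.56 in the MRL mice and 2.30, 2.23 and 2.57 in the LPR mice. Its groups overlapped (log2 change 0.03, adjusted p = 0.901). Cox7a1, a subunit of the same complex, was lower without overlap but not called (−0.43, adjusted p = 0.0681). Dio2, the enzyme that activates thyroid hormone in brown fat, gave 0.91 with overlapping groups (adjusted p = 0.152). Otop1 (1.04, adjusted p = 0.317), Tbx1 (0.49, adjusted p = 0.198), Slc27a1 (0.48, adjusted p = 0.240) and Ntrk3 (0.40, adjusted p = 0.215) were also higher on average. Their groups overlapped too. In none of the 16 genes was LPR 3 at least 1 below the mean of LPR 1 and LPR 2. Such a gap was rare over all tested probes too, at 0.747%.

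Of 17 genes that regulate Ucp1 in fat, 16 were tested, 3 were called lower and 1 higher, against 6.17% and 6.53% of all tested probes. The median log2 change was −0.13, against −0.14 for all probes. In 7 of the 16 every LPR mouse was below every MRL mouse, against 26.9% of all probes. Adrb3, the beta adrenergic receptor of fat cells, had log2 signals of −1.20 in MRL 1, −1.02 in MRL 2 and −1.30 in MRL 3, and of −1.37 in LPR 1, −2.16 in LPR 2 and −5.16 in LPR 3. It showed the gap of LPR 3, at −3.40, and its log2 change of −1.72 was not called (limma adjusted p = 0.239). Adrb1, a beta receptor of heart and kidney, had overlapping groups with a log2 change of 0.17 (adjusted p = 0.370). Ppargc1a, the coactivator of mitochondrial biogenesis that kidney tubules also express strongly, was 3.22, 3.04 and 3.06 in the MRL mice and 2.38, 1.80 and 2.25 in the LPR mice. It fell by 0.96 ± 0.17 (SE, adjusted p = 0.0131). Ppara, a nuclear receptor of fatty acid oxidation, changed by −0.89 ± 0.20 (adjusted p = 0.0322), and Thrb, a thyroid hormone receptor, by −0.49 ± 0.10 (adjusted p = 0.0242), where its other tested probe gave −0.43 (adjusted p = 0.0716). Irf4, a transcription factor of fat cells and of lymphocytes, rose by 3.43 ± 0.36 (adjusted p = 0.00133). Pparg, the master regulator of fat cells, was 0.40, 0.44 and 0.29 in the MRL mice and 1.02, 0.74 and 0.74 in the LPR mice, higher without overlap but not called (0.46, adjusted p = 0.0511). Prdm16 (−0.435, adjusted p = 0.0731), Ppargc1b (−0.36, adjusted p = 0.0813) and Esrrg (−0.61, adjusted p = 0.0714) were lower without overlap and not called.

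The closest relatives of Ucp1 went the other way. Ucp2, an inner membrane carrier of many tissues and of immune cells, had log2 signals of 0.04, 0.31 and 0.19 in the MRL mice and of 1.01, 1.31 and 1.07 in the LPR mice. Ucp3, the muscle member of the family, had 0.40, 0.56 and 0.51 in the MRL mice and 1.37, 1.69 and 1.42 in the LPR mice. In both the groups were clearly apart, with LPR above. The log2 changes were 0.95 ± 0.13 (SE, limma adjusted p = 0.00440) for Ucp2 and 1.00 ± 0.12 (adjusted p = 0.00293) for Ucp3. Of the related carriers, Slc25a30 fell by 0.50 ± 0.12 (adjusted p = 0.0433), although 1 of its 4 probes gave 0.07 (adjusted p = 0.768). Slc25a27 (−0.46, adjusted p = 0.223), Slc25a14 (−0.14, adjusted p = 0.377) and the ADP/ATP carriers Slc25a4 (−0.38, adjusted p = 0.0930) and Slc25a5 (−0.19, adjusted p = 0.268) were not called, and Slc25a31 was not tested. With slide column as a block neither Ucp2 (adjusted p = 0.0813) nor Ucp3 (adjusted p = 0.0554) was called, with log2 changes of 0.83 and 0.88.

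**Figure D4:**
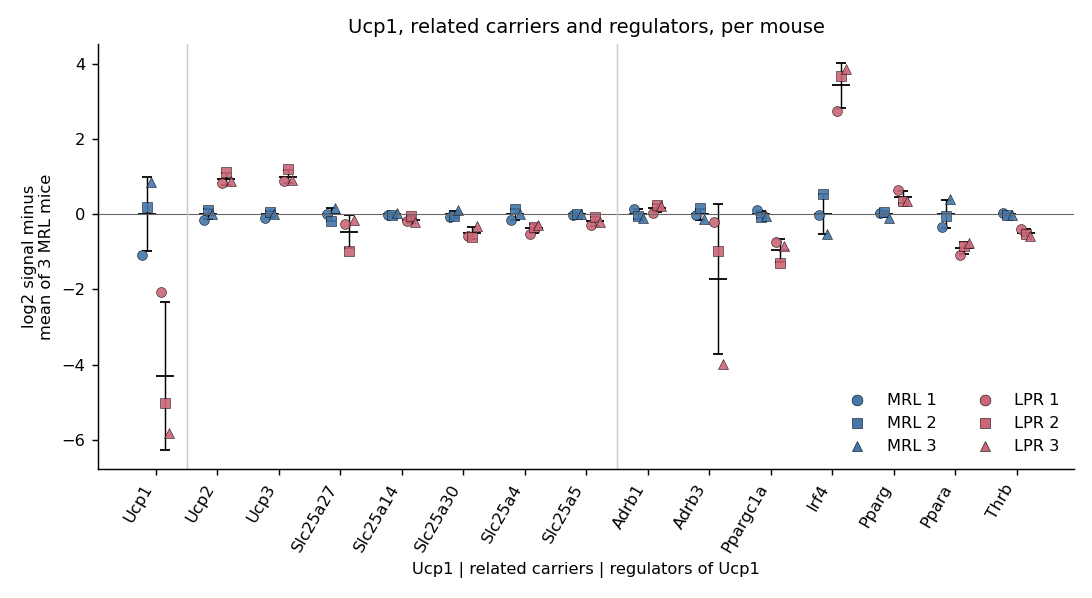
Log2 signal of each mouse minus the mean of the 3 MRL mice (vertical axis) for Ucp1, 7 related carriers and some regulators of Ucp1. The regulators shown are Adrb1, Adrb3, Ppargc1a, Irf4, Pparg, Ppara and Thrb. Genes are on the horizontal axis, and grey lines separate these parts. Points are single mice, with the mean and SD (n = 3) of each group in black. Adrb3 has LPR 3 lowest, Ucp1 of LPR 2 and LPR 3 is not well above background, Ucp2 and Ucp3 lie about 1 above the MRL mice, and Irf4 is higher by 3.43.

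The promoter of Ucp1 is shown because the receptors above act on fat genes through short DNA motifs, and that of Adipoq for comparison. Both sequences are the 250 bases before the start of the gene in the RefSeq table for the build GRCm38.p6, which holds 5 of the 8 genes (Ucp1, Adipoq, Cfd, Lep and Plin1). They lie at chr8:83290098-83290347 and chr16:23146286-23146535, both on the plus strand. Capitals mark the matches on either strand to the nuclear receptor motif AGGTCA, the cAMP response motif TGACG, the CCAAT box CCAAT and the TATA motif TATAAA.
Ucp1: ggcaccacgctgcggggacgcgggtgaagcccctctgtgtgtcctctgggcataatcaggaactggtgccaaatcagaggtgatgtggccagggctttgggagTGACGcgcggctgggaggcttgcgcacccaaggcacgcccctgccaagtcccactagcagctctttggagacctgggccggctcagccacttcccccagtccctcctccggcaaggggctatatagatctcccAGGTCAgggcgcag
Adipoq: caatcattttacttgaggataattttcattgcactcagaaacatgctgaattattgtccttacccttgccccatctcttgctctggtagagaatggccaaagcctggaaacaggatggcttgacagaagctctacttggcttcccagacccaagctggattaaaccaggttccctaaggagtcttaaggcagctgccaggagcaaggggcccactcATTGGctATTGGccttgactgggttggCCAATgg
The Ucp1 window held TGACG at 147 to 143 bases and AGGTCA at 14 to 9 bases before the start. The Adipoq window held CCAAT at 7 to 3 bases, and its reverse complement ATTGG at 27 to 23 and at 34 to 30 bases before the start. Each of these motifs was found in 1 of the 5 windows and TATAAA in none. Among the 32851 promoters of the table, windows of the same length held TGACG in 17.8%, AGGTCA in 14.0%, CCAAT in 33.8% and TATAAA in 12.4%. A match is a stretch of letters and was not tested as a binding site.

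Genes of fatty acid oxidation, a process of brown fat and of kidney tubules, were read as well. Of 20 genes 19 were tested, with a median log2 change of −0.38, against −0.14 for all probes. Against 6.17% and 6.53% of all tested probes, 3 were called lower and none higher. These were Pdk4, a kinase that spares glucose (−1.70 ± 0.26 (SE), limma adjusted p = 0.00700), Cpt1a, the liver and kidney form of the carnitine transferase (−0.48 ± 0.10, adjusted p = 0.0237), and Hadhb, a subunit of the mitochondrial trifunctional protein (−0.41 ± 0.10, adjusted p = 0.0467). Of the 2 other tested probes of Hadhb, neither was called. In none of the 19 genes was LPR 3 at least 1 below the mean of LPR 1 and LPR 2, a gap seen in 0.747% of all tested probes.

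Markers of other cells that a kidney sample may hold were read beside the fat genes. Their summed signals are given as multiples of the 75th percentile of the array. All 8 macrophage markers were tested and 7 were called higher, against 6.53% of all tested probes. Their median log2 change was 2.97, with summed signals of 28.5 to 35.6 in MRL mice and 69.3 to 72.8 in LPR mice. In the MRL mice Itgam and Csf1r were the brightest of them, with mean log2 signals of 3.78 and 3.77. Csf1r rose by 0.55, and Itgam was the marker not called (−0.09, limma adjusted p = 0.783), with overlapping groups. Cd68, a lysosomal protein, rose 8.59-fold (limma adjusted p = 2.92e-05). The complement subunit genes C1qa, C1qb and C1qc rose by 3.43, 3.34 and 3.43. Within the LPR mice the macrophage sums were nearly level, whereas those of the 6 fat genes other than Ucp1 were 32.2 in LPR 1, 31.1 in LPR 2 and 11.3 in LPR 3, against 41.9 to 54.6 in the MRL mice. Cfd and Fabp4 made up 91.3% to 96.4% of this sum in every mouse, and the low value of LPR 3 came from Cfd, at 2.60 there against 19.2 in LPR 1 and 21.5 in LPR 2. All 11 endothelial markers were tested and 1 (Kdr, a VEGF receptor, −0.57, limma adjusted p = 0.0317) was called lower, against 6.17% of all tested probes. The endothelial sums were 61.3 to 64.2 in MRL and 55.0 to 58.0 in LPR mice. The summed signals of the 26 adipocyte genes were 306 to 321 in MRL and 209 to 211 in LPR mice, a sum to which Pck1 contributes much.

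Of 12 adrenal markers, read because fat of the brown kind lies next to that gland, 8 were tested. None was called in either direction by limma, against 12.7% of all tested probes, although 3 had an unadjusted p under 0.05. The summed signals were 1.19 to 1.34 in MRL and 1.01 to 1.15 in LPR mice. Cyp11b1, Cyp11b2 and Cyp11a1, the defining enzymes of the adrenal cortex, and Dbh, of its medulla, were above background on too few arrays to be tested. Of the 12 kidney segment markers, Slc5a2, the glucose transporter of the proximal tubule, changed by −0.57 ± 0.12 (SE, adjusted p = 0.0270) and Lrp2, its endocytic receptor megalin, by −0.39 ± 0.10 (adjusted p = 0.0492). The other 10 were not called. Of all tested probes 6.17% were called lower and 6.53% higher. The kidney segment list had a median log2 change of −0.26, against −0.14 for all probes. Other tested probes of Slc5a2 (1) and Lrp2 (4) had changes of the same sign and were not called. How much fat, endothelium or macrophage each sample held was not measured, and the part of such differences in the fat gene values was not tested.

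The calls of the list genes differed in how well they held. Leaving out any 1 mouse kept the calls of Pck1, Ppargc1a, Irf4, Ucp2, Ucp3, Pdk4, Cd68, C1qa, C1qb and C1qc. At least 4 of the 6 such fits ended the calls of Gk, Cpt1b, Thrb, Ppara, Plin4, Slc2a4, Slc25a30, Cpt1a, Hadhb, Kdr, Slc5a2 and Lrp2, with both MRL and LPR mice among those whose loss ended a call. With slide column as a block, the calls kept were those of Pck1, Irf4, Pdk4, Cd68, C1qa, C1qb and C1qc. For LPR 1 alone against the MRL mice, Irf4 was not called either (adjusted p = 0.0580).

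The genes whose profile over the 6 mice was nearest to that of Ucp1 were sought among 25804 other genes, by the root mean square difference of log2 values after each gene was centred on its own mean. The nearest were Acvr1c at 0.93, Cidea at 0.99, Igfbp5 (an insulin-like growth factor binding protein) at 1.05, Gm46902 at 1.32 and 4930579D07Rik at 1.33. Acvr1c had log2 signals of −3.92, −3.90 and −4.14 in the MRL mice and of −5.02, −7.44 and −8.37 in LPR 1, LPR 2 and LPR 3, and like Ucp1 it was well above background in LPR 1 alone of the LPR mice. Igfbp5 was 4.45, 4.13 and 4.29 in the MRL mice and 0.42, −0.13 and −0.70 in the LPR mice. Gm46902 was −0.57, −0.67 and −0.48 in the MRL mice and between −5.25 and −5.09 in the LPR mice, so its nearness came from the size of the difference and not from the order of the LPR mice. Of the other fat genes, Plin1 ranked 8, Adipoq 29, Cfd 48, Fabp4 360 and Lep 5189. These ranks use the values by which Ucp1 was chosen, and in LPR 2 and LPR 3 a Ucp1 signal that was not well above background. With all signals raised to the detection limit of their array, Cidea ranked 7, Igfbp5 12, Acvr1c 15, Plin1 21, Adipoq 73 and Cfd 156, and the nearest was 4930579D07Rik, so the order is not settled. The measure weighs large differences most, and it says nothing of shared control.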

How the data were processed

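Kidney RNA of 3 MRL and 3 LPR mice was hybridised to single-colour Agilent arrays, 1 array per mouse. RNA extraction is given differently by the sources (a column kit in the labels, TRIzol in the methods). The authors deposited scanner intensities from Feature Extraction 12.0.3.1, which are background-subtracted within the array, and a table of the same intensities as a ratio to the 75th percentile of all spots of each array; that table was used as an alternative. Here log2 intensities of the 59305 non-control spots were centred on the 75th percentile of each array, outlier spots (73 to 90 per array) were left out, and the spots of a probe were averaged. Probes well above background on at least 3 of 6 arrays were tested with limma (version 3.58.1, run in R 4.3.3), and p-values were adjusted by Benjamini-Hochberg with 0.05 as the threshold. The procedure was tested on simulated data. No saturated spot was found. Precision is limited by the number of arrays, 3 per group.

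The genes and lists were chosen with earlier results of these data known. Named genes are the 8 fat genes, up to 4 genes per list and direction with the smallest adjusted p past the threshold, all related carriers, and the 5 genes nearest to Ucp1. Other list genes in the text (among them Adrb3, Cidec, Car3, Cox8b and Pparg) were chosen after their values were seen. Some list genes are not reported here by name and remain in the counts. Alternatives were other background corrections, normalizations, filters and blocks, the methods' t-test, and leaving out each mouse. Symbols were updated through RefSeq accessions for 32185 of 32493 probes that carry one. Whether a probe lies in an exon or UTR was not examined, because no mm9 annotation was used here.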

Additional observations from a re-analysis of the deposited data

How the results depend on the processing

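The log2 change of Ucp1 stayed negative under all alternatives that gave it a value. The repeat of the ranking by likeness to Ucp1 with raised signals, and the median of the other fat genes without LPR 3, were also chosen after seeing the data. The change of Ucp1 was −5.41 to −3.54 when a mouse was left out, −1.59 with normexp background correction (offset of 50 intensity units), and −2.07 with slide column as a block and for LPR 1 alone. Requiring signal above background on all 6 arrays removed its probe. The Plin1 probe A_55_P2728182 turned from −0.47 to 0.26 with slide column as a block and within slide column 1. The comparison within slide column 1 was chosen after seeing the data; it sets LPR 1 alone against 3 MRL mice and assumes that this lone sample varies like the others.

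The following are counts of genes called, and every list not named kept a count within 1.5 times the reported one. With normexp, the genes called lower were 3 of the other fat genes, 10 adipocyte, 6 brown fat, 6 regulator, 2 carrier, 7 fatty acid oxidation, 2 endothelial and 4 kidney segment genes, and those called higher 2 regulator, 1 endothelial and 1 kidney segment gene. Over all tested probes normexp called 4498 lower and 2532 higher, against 2462 and 2606 in the main fit. With no filter on dim probes, the lower counts were 1 for adipocyte genes, 1 for fatty acid oxidation and 0 for the brown fat, endothelial, kidney segment and carrier lists. With signal required on all 6 arrays, and also with dim signals raised to the detection limit, 2 other fat genes (with Cidea) and 5 adipocyte genes were lower and 2 regulators higher. With the mean over probes, 7 adipocyte genes and 0 carriers were lower and 2 regulators higher. With a median shift 1 kidney segment gene and 0 carriers were lower; 1 kidney segment gene was lower with the authors' own values; with quantile normalization 5 oxidation genes and 1 kidney segment gene were lower and 2 regulators higher. By the methods' t-test, Benjamini-Hochberg adjusted, 0 other fat, brown fat, endothelial and carrier genes, 1 adipocyte gene and 1 regulator were lower.

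With slide column as a block, 0 other fat, regulator, endothelial and carrier genes were lower, 1 each of the adipocyte, brown fat and kidney segment lists was lower, and 0 carriers were higher. Within slide column 1, 0 other fat, regulator, endothelial and carrier genes were lower, 1 each of the brown fat, oxidation and kidney segment lists was lower, and 0 regulators and 0 carriers were higher. With the replicate number as a block, 0 other fat, endothelial and carrier genes were lower, 1 oxidation and 1 kidney segment gene were lower and 1 kidney segment gene was higher. That block lowered the number of probes called lower from 2462 to 1117 and higher from 2606 to 2199. Same-numbered mice did not deviate together (correlations 0.115, 0.02 and 0.005), so the numbers were not taken as pairs. The cause of these shifts was not tested.

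When each mouse was left out in turn, the lower counts ranged from 0 to 2 for the other fat genes, 1 to 5 for adipocyte, 0 to 3 for brown fat, 1 to 2 for regulator, 0 to 1 for carrier, 1 to 3 for oxidation, 0 to 1 for endothelial and 0 to 1 for kidney segment genes. The higher counts ranged from 0 to 1 for the brown fat and kidney segment lists.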

Other observations

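Genes well above background on the 5 arrays other than LPR 3 were ranked by how far LPR 3 lay below the mean of LPR 1 and LPR 2, as a description with no test; LPR 3 itself could be below background. Of 23502 genes, the lowest 15 held 4 of the fat genes (Adipoq at rank 3, Cfd at 5, Plin1 at 6 and Cidea at 11) and 4 more of the adipocyte and regulator lists (Adrb3 at 2, Cidec at 4, Car3 at 10 and Retn at 15). The first was Prss35, a serine protease family member, with log2 signals of −2.38, −2.85 and −2.56 in the MRL mice and of −2.36, −4.39 and −6.93 in LPR 1, LPR 2 and LPR 3. Cldn11, a tight junction protein of Sertoli cells and oligodendrocytes, was at rank 9, with −1.78, −2.30 and −2.49 in the MRL mice and −2.42, −2.66 and −5.17 in the LPR mice. Over all tested probes LPR 3 was the lowest of the 6 mice in 17.8%, LPR 2 in 24.3% and LPR 1 in 27.1%.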
